A study of Homo sapiens with 8 samples.

Results

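The integrated stress response is the route by which cells that lack amino acids or haem, carry misfolded protein or meet double-stranded RNA slow general translation and switch on a rescue programme. Kinases phosphorylate the translation initiation factor eIF2, and ATF4, a basic leucine zipper (bZIP) transcription factor whose messenger RNA is translated best when eIF2 is phosphorylated, then induces genes of amino acid supply, feedback and, under long stress, cell death. The programme is known for following amino acid shortage and stress of the endoplasmic reticulum, and much of it was worked out in cultured fibroblasts.

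ATF4 and its effectors were described here by 10 genes: the transcription factors ATF4, ATF3, DDIT3 (CHOP) and CEBPB, the regulators TRIB3, PPP1R15A (GADD34), NUPR1 and NIBAN1, and the enzymes ASNS and CHAC1. They were chosen by name, with the 12 h differences of these arrays in view, and were taken from every probe set (a group of short probes for one transcript) that the array annotation assigns to that symbol alone. Of the 10 genes, 8 were measured at 12 h, by 8 probe sets, among 7713 genes with such a probe set, and 10 at 6 h, by 12 probe sets, among 11963. DDIT3 and CHAC1 are not analysed here at 12 h.

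The cells were MRC5, an established line of human diploid lung fibroblasts, exposed to 10 µM 8-oxoguanine, the oxidised form of guanine as a free base, or mock treated with solvent. Total RNA was read on short-oligonucleotide arrays, with 1 treated and 1 mock array at 6 h and 3 of each, of a smaller array type, at 12 h. The 12 h arrays are labelled as technical replicates by extract, so their spread may be technical, and every p below rests on the spread between extracts alone. Intensities are in arbitrary units, scaled by the authors to a common array mean, and the number of arrays limits their precision. Because the array types differ, intensities were compared within a time only. In bulk RNA, fewer cells in a given state and less RNA per cell cannot be told apart.

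Of 14 listed fibroblast markers, 12 were on the 12 h arrays and all 12 lay above the filter on dim probe sets. Their summed intensity was 77341 to 92503 in mock and 76166 to 90534 in treated cells, which overlap. That sum is mostly collagens and VIM; by gene, LUM rose by 1.07, PDGFRA by 0.36 and PDGFRB by 0.30 on the log2 scale, S100A4 fell by 0.58 (limma adjusted p = 0.00340, 0.0220, 0.0446 and 0.00302), and 8 did not pass. Of the markers of other cells, EPCAM, CDH1, VWF, CDH5, KDR, PTPRC and CD14 lay under the filter, and the keratins KRT18, KRT19 and KRT8, the endothelial PECAM1 and the haemoglobin gene HBB lay above it. KRT19 fell from a mean of 277 to 116 (limma adjusted p = 0.00145), and the other 4 did not pass, with KRT18 at 3639 in mock and 3943 in treated cells. The part of these markers in the members' differences was not tested. The ratio of the 3' to the 5' signal of the actin control, a sign of RNA quality, ran from 0.889 to 0.995 in mock and from 0.999 to 1.07 in treated cells at 12 h without overlap, and its part in the differences below was not tested. The same ratio of GAPDH overlapped, at 0.779 to 0.826 in mock and 0.802 to 0.843 in treated cells.

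Promoter sequences are shown for the 4 members in which a searched motif was found. ATF4 paired with a C/EBP factor is known to bind a composite element with the core TGATGNAA, and ATF and CREB dimers bind the cAMP response element TGACGTCA. RefSeq windows (GRCh38.p14) of 300 bases, from 250 before to 50 after a transcription start, were given for 9 of the 10 members in 16 windows, and both strands were searched. The composite core lay in windows of 3 of 9 member genes, ASNS, ATF3 and CHAC1, against 4.46% of all 27305 genes with a window, and in 3 of 16 member windows against 3.62% of all 35116. The cAMP response element lay in 1 of 9, PPP1R15A, against 2.25% of genes and 1.85% of windows, and the C/EBP palindrome TTGCGCAA in 0 of 9, against 0.172% of genes. These are letter matches in genes chosen by name as ATF4 and its effectors, so no excess over those shares is read from them. Capitals mark the matches below. The match is TGATGAAA at bases -68 to -61 of ASNS, TGATGGAA at -191 to -184 of ATF3, TTGCATCA (TGATGCAA on the opposite strand) at -209 to -202 of CHAC1 and TGACGTCA at -58 to -51 of PPP1R15A.
ASNS, chr7:97872359-97872658, minus strand: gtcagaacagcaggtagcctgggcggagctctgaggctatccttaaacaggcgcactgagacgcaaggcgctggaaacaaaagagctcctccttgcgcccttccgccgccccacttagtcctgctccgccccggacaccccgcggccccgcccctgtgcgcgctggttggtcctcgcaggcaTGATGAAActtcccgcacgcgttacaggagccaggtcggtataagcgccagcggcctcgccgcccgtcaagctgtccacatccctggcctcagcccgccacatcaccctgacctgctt
CHAC1, chr15:40953221-40953520, plus strand: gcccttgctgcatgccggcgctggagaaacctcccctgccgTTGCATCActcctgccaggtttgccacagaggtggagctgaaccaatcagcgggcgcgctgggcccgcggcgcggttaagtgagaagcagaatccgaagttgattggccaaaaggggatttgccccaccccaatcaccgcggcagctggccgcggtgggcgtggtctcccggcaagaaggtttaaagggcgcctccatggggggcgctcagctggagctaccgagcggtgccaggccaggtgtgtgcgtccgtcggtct
ATF3, chr1:212565157-212565456, plus strand: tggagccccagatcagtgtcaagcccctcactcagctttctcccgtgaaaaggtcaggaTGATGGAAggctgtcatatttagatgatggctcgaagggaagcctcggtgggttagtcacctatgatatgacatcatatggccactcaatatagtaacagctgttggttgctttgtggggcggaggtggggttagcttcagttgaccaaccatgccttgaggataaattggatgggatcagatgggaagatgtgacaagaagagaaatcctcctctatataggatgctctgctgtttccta
PPP1R15A, chr19:48872171-48872470, plus strand: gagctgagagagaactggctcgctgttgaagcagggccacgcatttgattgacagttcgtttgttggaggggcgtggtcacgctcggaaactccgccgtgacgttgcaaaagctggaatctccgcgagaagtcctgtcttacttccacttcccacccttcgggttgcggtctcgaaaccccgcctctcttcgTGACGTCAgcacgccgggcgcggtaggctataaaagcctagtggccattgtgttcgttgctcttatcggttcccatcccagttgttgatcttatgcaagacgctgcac

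At 12 h TRIB3, ASNS, NUPR1, NIBAN1 and ATF3 were 2.08-fold to 2.86-fold higher in treated cells and ATF4 itself 1.46-fold, while CEBPB and PPP1R15A overlapped with mock. In 6 of 8 member probe sets the lowest treated array lay above the highest mock array, as it did in 17.4% of the 5248 probe sets kept at 12 h. The same 6 were past an adjusted p of 0.05 in the direction of higher, as were 6.59% of all, and 13.2% of all were past it in either direction. Without the intensity trend in the fit 5 were past it, since ATF4 then had a limma adjusted p of 0.0583. The 12 h comparison had helped to choose the members, so nothing is read from these counts, and each member's values are given as a description. The median log2 fold change of the 8 was 1.08, against 0.0072 for all probe sets kept. All 8 would have passed the filter by their mock arrays alone, since the lowest mock mean was 247 against a filter limit of 93.9.

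Among the transcription factors, ATF4 (200779_at) had intensities of 2857, 3597 and 3297 on the mock arrays and 4445, 4240.1 and 5558 on the treated arrays. The groups did not overlap, but the lowest treated value was only 1.18 times the highest mock value. The log2 fold change of ATF4 was 0.54 (SE 0.12), or 1.46-fold.

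ATF3 (202672_s_at), a stress-induced bZIP factor that ATF4 is known to induce, had 248, 265 and 229 in mock and 519, 508 and 513 in treated cells. The treated arrays were tightly grouped and the lowest of them was 1.91 times the highest mock array. Its log2 fold change was 1.06 (SE 0.11), or 2.08-fold.

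CEBPB (212501_at), a C/EBP factor that can pair with ATF4, had 2858, 2631 and 2989 in mock and 2733, 2741 and 2739 in treated cells. All 3 treated values lay inside the mock range. The log2 fold change of CEBPB was -0.044 (SE 0.070), a difference within the spread between arrays.

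Among the regulators, TRIB3 (218145_at), a pseudokinase that binds ATF4 and restrains it, had 590.2, 554 and 684 in mock and 1678, 1759 and 1776 in treated cells. The lowest treated array was 2.45 times the highest mock array. Its log2 fold change of 1.52 (SE 0.091), or 2.86-fold, was the highest of the 8 member probe sets.

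NUPR1 (209230_s_at), a small chromatin protein induced by stress, had 437, 466 and 454 in mock and 1173, 1115 and 979 in treated cells. The treated arrays spread more than the mock arrays, with coefficients of variation of 9.15% and 3.13%, and did not come near them. The log2 fold change of NUPR1 was 1.26 (SE 0.092), or 2.40-fold.

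NIBAN1 (217967_s_at), a cytoplasmic stress-induced protein linked to the phosphorylation of translation factors, had 400.2, 442 and 434 in mock and 924, 931 and 897 in treated cells. The lowest treated array was 2.03 times the highest mock array. Its log2 fold change was 1.11 (SE 0.084), or 2.16-fold.

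PPP1R15A (37028_at), the phosphatase subunit that removes the phosphate from eIF2 and so ends the response, had 603, 641 and 746 in mock and 828, 719 and 799.6 in treated cells. Treated replicate 2 lay below mock replicate 3, so the groups overlapped. The log2 fold change of PPP1R15A was 0.24 (SE 0.10), or 1.18-fold.

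Of the enzymes, ASNS (205047_s_at), asparagine synthetase, which makes asparagine from aspartate and glutamine, had 1149, 1194 and 1185 in mock and 2853, 2940.2 and 3196 in treated cells. The mock arrays were the closest to each other of any member, with a coefficient of variation of 2.00%, and the lowest treated array was 2.39 times the highest of them. The log2 fold change of ASNS was 1.35 (SE 0.071), or 2.54-fold.

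**Figure D1:**
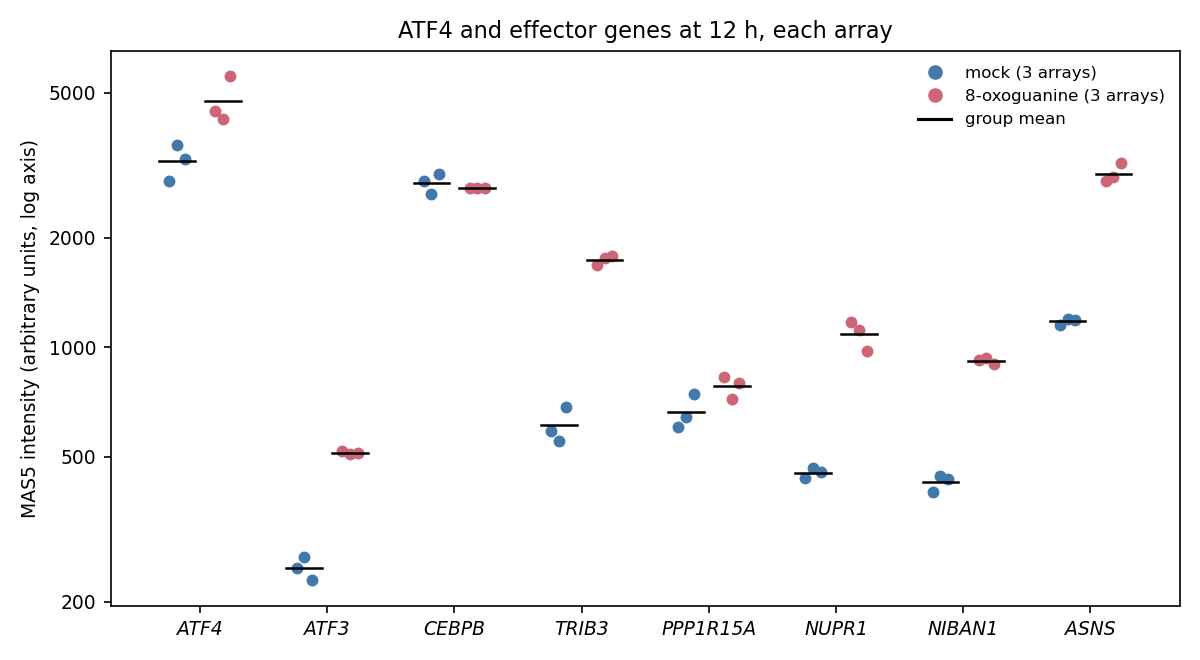
Intensity of the 8 members measured at 12 h (vertical log axis, arbitrary units) on each of the 3 mock and 3 8-oxoguanine arrays, with horizontal lines at the group means. TRIB3, NUPR1, NIBAN1, ATF3 and ASNS are separated by a wide gap, ATF4 by a narrow one of 1.18-fold, and CEBPB and PPP1R15A overlap.

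In order of log2 fold change at 12 h the members ran TRIB3, ASNS, NUPR1, NIBAN1, ATF3, ATF4, PPP1R15A and CEBPB. Neighbours among the first 5 differed by 0.054 to 0.17, with standard errors of 0.12 to 0.13 for the difference between 2 probe sets. The order within each neighbouring pair is therefore not settled by these arrays, and members farther apart among the 5 were not compared. ATF4 lay 0.51 (SE 0.16) below ATF3. The mean of the 8 members, each centred on its own mean over the 6 arrays, was 0.44, 0.41 and 0.47 in treated and -0.50, -0.43 and -0.39 in mock cells on the log2 scale. This separation follows from how the members were chosen.

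At 6 h there was 1 array per treatment, so the ratios have no replicate check and no test. CHAC1 (219270_at), a glutathione-degrading enzyme induced through ATF4, had the highest ratio, with an intensity of 1272 on the mock and 2031 on the treated array, a log2 ratio of 0.67. It was the only 1 of the 12 member probe sets at or past 1.5-fold higher, where 3.32% of 11108 probe sets kept at 6 h were. Of the 12, 10 were higher on the treated array, against 45.6% of those kept, with a median log2 ratio of 0.24 against -0.032. The filter at 6 h kept 11 and left out ATF3, whose intensities of 149 (mock) and 135 (treated) lay around the limit of 148. Other RNA differed between these 2 arrays too: the summed intensity of the 14 fibroblast markers was 72307 in mock and 127191 in treated cells, with 13 higher and a median log2 ratio of 0.55, above that of the members. The marker sums were also higher on the treated array for the epithelial (2772 and 3729), endothelial (109 and 155) and blood lists (184 and 259), and their part in the members' ratios was not tested.

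The 6 h ratios of several members, among them ATF4, ASNS and CEBPB, depended on the scaling. Centring each array on its median moved the median of all probe sets kept from -0.032 to 0.083, a shift that all members shared. Quantile normalization, which also evens out the spread of intensities, took the log2 ratio of ATF4 (4901 mock, 6357 treated) from 0.38 to 0.078 and that of ASNS (3975 and 4725) from 0.25 to 0.094. CEBPB (4444 and 4881) went from 0.14 to -0.054. TRIB3 (1735 and 2312) stayed at 0.41 and 0.43, and CHAC1 at 0.67 and 0.72.

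PPP1R15A was above mock at 6 h on both of its probe sets, with 330 and 446 on 202014_at and 777 and 929.9 on 37028_at, log2 ratios of 0.43 and 0.26 (0.53 and 0.35 after quantile normalization). NUPR1 had 824 and 971, a log2 ratio of 0.24. DDIT3 (209383_at), which encodes CHOP, the factor tied to cell death in prolonged stress, had 509 and 534, a log2 ratio of 0.068 (0.17 after quantile normalization).

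NIBAN1 was read by 2 probe sets at 6 h that disagreed. On 217966_s_at it had 441 on the mock and 514 on the treated array, a log2 ratio of 0.22, and on 217967_s_at it had 1886 and 1708, a log2 ratio of -0.14. The latter is the probe set that was 2.16-fold higher at 12 h. ATF3 likewise had a log2 ratio of -0.14 at 6 h against 1.06 at 12 h. Both of these negative ratios are as deposited. Median centring raised the 6 h ratios of all members alike and brought these 2 nearer to no difference. The times also differ in array type and in the number of arrays, so no difference between them was tested.

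**Figure D2:**
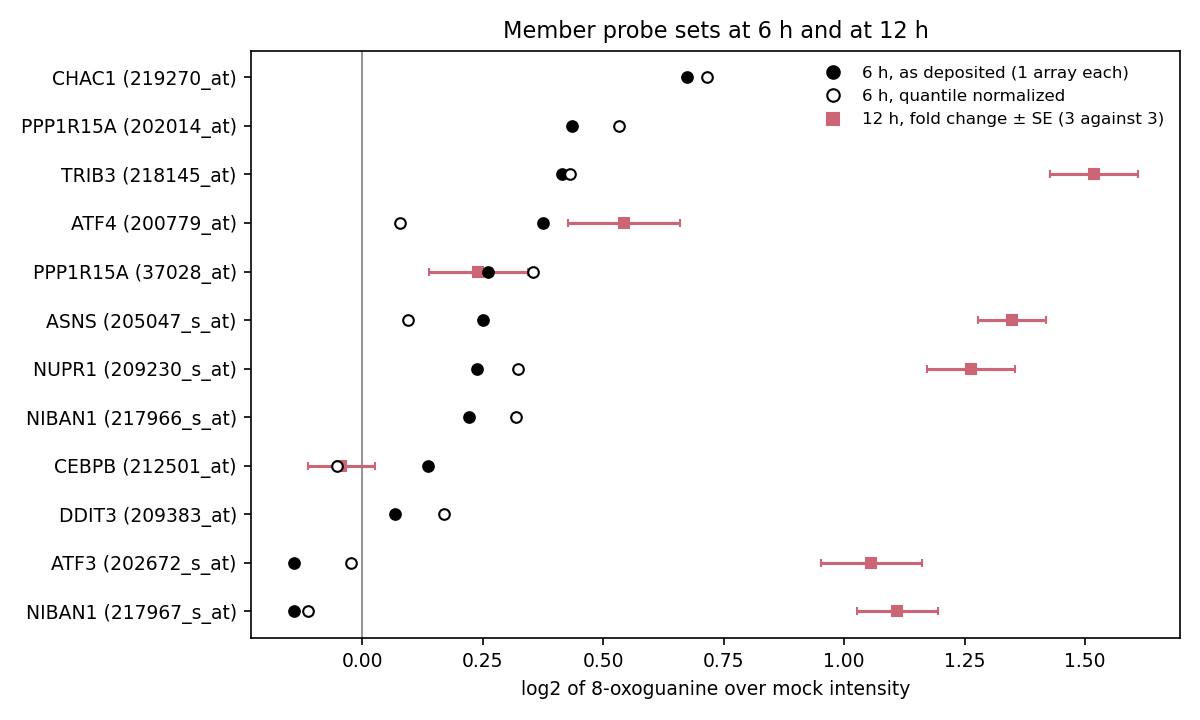
Log2 of treated over mock intensity for the 12 member probe sets (vertical axis, with the probe set in brackets), at 6 h as deposited (filled circles) and after quantile normalization (open circles) and, where measured, at 12 h as the fold change ± SE of 3 against 3 arrays (squares). CHAC1 leads at 6 h with 0.67, and TRIB3 leads at 12 h with 1.52.

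The gene lists from here on were chosen with earlier results of these data known, so their counts are given as a description. They count 1 probe set per gene, while the shares beside them count all probe sets kept. Upstream of ATF4, the share of genes past the threshold was near that of all probe sets (13.2%). Of 16 listed eIF2 kinases, eIF2 and eIF2B subunits and regulators, 10 were tested at 12 h. EIF2AK4 (GCN2), EIF2B4, EIF2B5, PPP1R15B, IMPACT and GCN1 were not analysed here at 12 h. Phosphorylation of eIF2 was not measured. Of the 10 tested, 0 rose, 1 fell and 9 did not pass, with a median log2 fold change of -0.058. That 1 was EIF2AK3 (PERK), the eIF2 kinase of the endoplasmic reticulum, whose mean intensity went from 227 ± 33.5 in mock to 151 ± 15.1 after treatment (SD, n = 3), which is -0.59 on the log2 scale (SE 0.17, limma adjusted p = 0.0464). It did not pass without the filter (0.0875), with the replicate block (0.0789), or without any 1 array other than mock replicate 3 (0.0714 to 0.145).

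Of 23 bZIP partners and relatives, 4 rose, 2 fell and 17 did not pass, with a median of 0.096. Among all probe sets kept, 6.59% rose and 6.65% fell. CEBPG, a partner of ATF4 and a known target of it, rose from 250.3 ± 40.2 to 419 ± 21.7 (SD, n = 3), or by 0.75 on the log2 scale (SE 0.14, limma adjusted p = 0.00698). ATF6B, a relative of the stress sensor ATF6, rose by 0.63 (SE 0.15) and NFE2L2, the antioxidant factor NRF2, by 0.63 (SE 0.15), with limma adjusted p = 0.0232 and 0.0247. ATF6B did not pass when mock replicate 1 or 3 or treated replicate 1 or 2 was left out (0.0537 to 0.104), and NFE2L2 did not without any 1 of the 8-oxoguanine arrays (0.0599 to 0.0864). NFE2L2 also did not pass without the filter (0.0537) or without the intensity trend (0.0795). FOSL1, an AP-1 subunit, fell by 0.57 (SE 0.12, limma adjusted p = 0.0140). The number of rises was 2 when treated replicate 1 or 2 was left out. The number of falls was 1 without the intensity trend or without any 1 array other than mock replicates 2 and 3, and 3 without mock replicate 2. ATF5, a relative of ATF4 that is also translated under stress, had 0.096 and JUN, another AP-1 subunit, -0.071, named here after their values were seen.

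Of 7 other stress regulators, 0 rose, 2 fell and 5 did not pass, where 6.65% of all probe sets fell. The 7 included TRIB1, the other tribbles gene measured, with a log2 fold change of -0.029 and named after its value was seen. The 2 that fell were TXNIP, an inhibitor of thioredoxin, at -3.36 (SE 0.10, limma adjusted p = 1.65e-07), and GADD45B, a growth arrest gene, at -1.06 (SE 0.19, limma adjusted p = 0.00630). The treated mean of GADD45B, 92.5, lay under the filter limit, so the size of its fall is uncertain.

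Of 16 other targets of ATF4 or CHOP, 6 rose, 0 fell and 10 did not pass, with a median of 0.22, where 6.59% of all probe sets rose. PCK2, the mitochondrial phosphoenolpyruvate carboxykinase, rose by 0.69 (SE 0.11, limma adjusted p = 0.00363), and SQSTM1, an autophagy receptor, by 0.45 (SE 0.078, limma adjusted p = 0.00530). TNFRSF10B, a death receptor, rose by 0.47 (SE 0.11, limma adjusted p = 0.0219), a call lost when mock replicate 3 or treated replicate 1 or 2 was left out (0.0545 to 0.0891). That call was also lost without the intensity trend (0.0698). CTH, a cysteine-forming enzyme and 1 of the 6, had a mock mean of 78.0, under the filter limit, and a treated mean of 135, through which it passed the filter. The size of its log2 fold change, 0.80 (SE 0.23, limma adjusted p = 0.0482), is therefore uncertain, and it did not pass when any 1 array was left out (0.0575 to 0.163). CTH also did not pass without the filter (0.0924), with median centring (0.0516) or with quantile normalization (0.0528). The list had 2 rises without 8-oxoguanine replicate 1 or 2, and 3 without mock replicate 3 or without the intensity trend.

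ASNS belongs to the amino acid supply of the programme, of which 3 lists are given here beside 6.59% higher among all probe sets. Since the lists were chosen with earlier results known, no excess over that share is read from their counts. Of 6 serine and one-carbon enzymes 4 rose, 1 fell and 1 did not pass (median 0.62), led by PSAT1, a serine-pathway aminotransferase, at 0.97 (SE 0.064, limma adjusted p = 2.76e-05), and of 12 amino acid transporters 7 rose, 0 fell and 5 did not pass (median 0.46), led by SLC7A5, a carrier of large neutral amino acids, at 0.89 (SE 0.068, limma adjusted p = 7.57e-05). In the serine list PHGDH and MTHFD2 rose by 0.78 (SE 0.10) and 0.69 (SE 0.084), while MTHFD1 fell by 0.34 (SE 0.093), a call lost without any 1 array other than mock replicate 3 (0.0636 to 0.124). MTHFD1 also did not pass without the filter (0.0621) or without the intensity trend (0.0746). In the transporter list SLC1A4, SLC6A9 and SLC1A5 rose by 0.78 (SE 0.10), 0.77 (SE 0.17) and 0.69 (SE 0.098), and SLC6A9 did not pass without 8-oxoguanine replicate 1 (0.0836). Of 15 cytosolic aminoacyl-tRNA synthetases 6 rose, 0 fell and 9 did not pass (median 0.26), with WARS1, the tryptophanyl enzyme, at 0.77 (SE 0.075, limma adjusted p = 0.000304) and AARS1, SARS1 and NARS1 at 0.39, 0.36 and 0.34 (SE 0.077, 0.079 and 0.082). AARS1 did not pass without treated replicate 1 (0.0554), NARS1 when treated replicate 1 or 2 was left out (0.105 and 0.0764), and SARS1 when treated replicate 1 or 2 or mock replicate 1 or 3 was left out (0.0535 to 0.0556). SARS1 and NARS1 also did not pass without the intensity trend (0.0613 and 0.0818), nor NARS1 with median centring (0.0546). The rises among synthetases numbered 1 without 8-oxoguanine replicate 1, 3 without 8-oxoguanine replicate 2, mock replicate 1 or mock replicate 3, and 2 without the intensity trend.

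Of the ATF6 and XBP1 branch, which makes chaperones of the endoplasmic reticulum, 10 of 20 listed genes were tested at 12 h. HSPA5, HSP90B1, CALR, DNAJB11, DNAJC3, CRELD2 and EDEM1 were among those not analysed here at 12 h. Of the 10 tested, 0 rose, 3 fell and 7 did not pass, with a median of -0.12, where 6.65% of all probe sets fell. The number of falls was 3 in each alternative fit run. SDF2L1, MANF and HYOU1, all products of that compartment, fell by 0.75 (SE 0.13, limma adjusted p = 0.00609), 0.70 (SE 0.11, limma adjusted p = 0.00303) and 0.56 (SE 0.10, limma adjusted p = 0.00530). XBP1 itself, from the bZIP list and named after its value was seen, had 0.23 (limma adjusted p = 0.307).

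At 6 h the same lists were split, and 45.6% of all probe sets kept were higher on the treated array. Of 16 synthetases kept at 6 h, 11 were higher and 5 lower on the treated array (median log2 ratio 0.28), and of 6 serine and one-carbon enzymes 4 were higher (0.27). The transporters stood at 6 higher and 5 lower (0.019) and the other targets of ATF4 or CHOP at 9 and 8. The eIF2 list had 8 higher and 6 lower (0.011) and the bZIP list 9 and 10 (-0.063). The other stress regulators had 7 and 3 (0.059). Of 17 genes of the ATF6 and XBP1 branch, 11 were higher and 6 lower (0.19). These ratios are as deposited, and their dependence on the scaling was not tested. Of the 14 fibroblast markers, 13 were higher on the same array, with a median of 0.55.

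The genes outside the 10 whose profile over the 6 arrays of 12 h was most like the mean of the 8 members were RGS2, MME, PSAT1, SIX2 and RGS4, with Pearson's r of 0.996 to 0.998. These r describe 6 arrays that share the treatment contrast. RGS2, a regulator of G protein signalling, had 498, 508 and 533 in mock and 981, 998 and 1062 in treated cells. MME, the membrane protease neprilysin, had 147, 170.1 and 167 in mock and 455, 466 and 452 in treated cells. RGS4, of the same family as RGS2, had a log2 fold change of 0.38 (SE 0.063), and SIX2, a homeobox factor, 0.40 (SE 0.12, limma adjusted p = 0.0524), which did not pass.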

How the data were processed

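The deposited values are linear intensities, 1 for each probe set of an array. The submitters' processing notes name MAS5 for them, whose version is not given in the sources used. The mean of each array without its lowest and highest 2% was 499.9 on all 8 arrays. The labels' treatment protocol names 6 h throughout, but groups follow the time given sample by sample.

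Log2 of the intensity was taken without further scaling and control probe sets were left out. Probe sets whose mean log2 value lay under the 40th percentile at 12 h (a signal of 93.9) were dropped, leaving 5248 of 8746, and under the 50th at 6 h (148), leaving 11108 of 22215. Names came from the platform annotation, which gives 1 symbol, several or none for 7840, 388 and 518 probe sets at 12 h and for 19064, 1043 and 2108 at 6 h, and the RefSeq table of GRCh38.p14 changed 0 of them. The 12 h groups were compared over all probe sets kept with limma 3.58.1 in R 4.3.3 (intensity trend, two-sided, Benjamini-Hochberg, threshold 0.05). For lists, the brightest kept probe set stood for a gene.

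Members and lists were chosen with earlier results of these data known. All members were named, with up to 4 genes of each list with the largest change past the threshold and the 5 genes of most like profile. The 12 h fit was tested on simulated data. It recovered 83 of 100 probe sets raised 2-fold and 54 of 100 raised 1.5-fold, with 5 false calls among the unchanged probe sets of the 5248. The simulated spread was that between extracts, so these rates hold for that spread only. A gene that did not pass may therefore still have changed. Alternatives were median centring, quantile normalization, other filters, an added constant, no trend, a replicate block and leaving out each array.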

Additional observations from a re-analysis of the deposited data

Results flagged for a closer look

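The 8 members measured at 12 h and the 26 named genes of the lists were examined. In 32 of these 34 probe sets all 3 treated arrays at 12 h lay on one side of all 3 mock arrays, and in 13 of the 32 (40.6%) the 6 h pair went the other way. Among all probe sets kept at 12 h this held for 1004 of 1778 (56.5%), so the 13 are no larger a share than among all. With 1 array per treatment at 6 h, on another array type, the difference was not tested. Of the members these were ATF3, with a 6 h log2 ratio of -0.14 against 1.06 at 12 h, and NIBAN1 (217967_s_at), with -0.14 against 1.11. The ATF3 intensities at 6 h, 149 and 135, were dim, and its ratio was -0.024 after quantile normalization.

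Of the other genes, the transporters SLC1A4 and SLC1A5 had 6 h log2 ratios of -0.71 and -0.11 against 0.78 and 0.69 at 12 h. CTH had -0.55 against 0.80, TNFRSF10B -0.30 against 0.47 and SQSTM1 -0.17 against 0.45. CEBPG had -0.14 against 0.75 and NFE2L2 -0.063 against 0.63. In the other direction, FOSL1 had 0.075 against -0.57, TXNIP 0.092 against -3.36, SDF2L1 0.19 against -0.75 and HYOU1 0.28 against -0.56. The counts and 6 h ratios flagged here are as deposited. Median centring moved the median of all probe sets kept at 6 h from -0.032 to 0.083, a shift shared by every probe set. That shift undoes the negative sign of SLC1A5 and NFE2L2, so their opposite direction depends on the scaling.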

How the results depend on the processing

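The members' median log2 fold change at 12 h lay between 1.02 and 1.12 over the alternatives, given as a description since the choice of members fixed its direction. With 1 array left out, the probe sets changed at 12 h numbered 371 (without 8-oxoguanine replicate 1) to 652 in place of 695, those higher 184 to 328 in place of 346 and those lower 187 to 324 in place of 349. They numbered 383 without 8-oxoguanine replicate 2 and 450 without mock replicate 3. At 6 h the members' median log2 ratio of 0.24 was 0.36 with median centring, and CEBPB turned to -0.054 with quantile normalization. Dropping the 6 h filter raised the probe sets 1.5-fold or more higher from 369 to 2676 and lower from 604 to 3523, and the stricter filter left 236 lower.

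The extract numbers are shared by the 12 h groups in the labels, but same-numbered arrays did not deviate together (r = 0.076, -0.15 and -0.050 for numbers 1 to 3). With the replicate block 513 probe sets changed. The block took the call from EIF2AK3 (0.0789), ATF6B (0.0511), CTH (0.0806) and MTHFD1 (0.0756) among the genes named.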
